A study of Homo sapiens with 9 samples.

Results

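The genes described here are 34 genes of the endoplasmic reticulum (ER) folding machinery and of the unfolded protein response, chosen by symbol and not by measured values. All 34 were found among the 34922 gene rows of the count table, and 33 of them were among the 17073 genes abundant enough to test. They comprise 12 chaperones and their cofactors, 5 protein disulfide isomerases, 4 stress sensors and transducers, 8 genes of ER-associated degradation and 5 genes of translocation into the ER. RNA was sequenced from TC71, an established human Ewing sarcoma cell line, after growth in NSG mice, an immunodeficient strain. Tumours were started from 100 cells in Matrigel under the flank skin, and at a tumour diameter of 1.5 cm the tumour cells were sorted from each organ. The groups were bone marrow metastases (4 libraries), lung metastases (4 libraries) and the primary tumour (1 library), with the same cell line and host in all of them and no drug or genetic change named in the labels. No label ties libraries to mice, so libraries of a group may share an animal and p-values measure the spread between these libraries.

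Secreted and membrane proteins enter the ER through the SEC61 channel, are folded by chaperones and oxidised by protein disulfide isomerases, and are passed to the cytosol for destruction when they fail to fold. When unfolded protein accumulates, the membrane sensors IRE1 (gene ERN1), ATF6 and PERK (gene EIF2AK3) are activated. IRE1 splices the XBP1 messenger RNA, cleaved ATF6 moves to the nucleus, and PERK phosphorylates the translation factor eIF2α, which favours translation of ATF4. XBP1 and ATF6 act on promoter elements of chaperone and degradation genes. Sensor activation, XBP1 splicing and protein levels are not read out by counts per gene.

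Libraries held 11549807 to 17910782 estimated counts. Values are given as TMM-scaled CPM, counts scaled to a common library size. Of 9 Ewing sarcoma markers looked at, 8 had counts in every library, and the 9 had a summed level of 1776 to 2349 CPM in bone marrow, 1829 to 2302 CPM in lung, and the primary library held 2545 CPM. The other one, FLI1, was near 0, at 0 to 0.765 CPM. LIPI, among the 8, was also near 0 in lung library 2 (0.0703 CPM) and lung library 4 (0.436 CPM), against 216 CPM in lung library 3. Sites differed in library measures. Bone marrow and lung libraries held 15483158 ± 1681662 and 12663462 ± 774544 counts, 78.6 ± 0.688% and 75.3 ± 1.97% of reads were assigned to human, and mitochondrial ribosomal RNA took 0.158 ± 0.0560% and 0.432 ± 0.0656% of reads (SD, n = 4 each). For each of these 3 the two-sided exact permutation test gave p = 0.02857, which is as small as groups of 4 allow (0.121 once adjusted over 17 measures). All 8 genes listed for RNA quality, 6 of them encoded in mitochondria, had log2 fold changes of bone marrow over lung below 0 (median -0.58). Their summed level was 14932, 4858, 6566 and 13268 CPM in bone marrow, against 11390 to 14645 CPM in lung. Only bone marrow libraries 2 and 3 lay below the lung range, and the permutation test on this sum gave p = 0.286 (0.540 adjusted). The part of these measures in the results below was not tested. Among markers of plasma cells, which are rich in ER, MZB1 was at 0 in every library. The 6 plasma cell markers found summed to 8.62 to 13.1 CPM in bone marrow, 7.47 to 10.2 CPM in lung, and the primary library held 11.3 CPM. CSF1R of the leukocyte list, ALAS2 of the red cell list and SCGB1A1 of the lung epithelium list were also at 0 throughout. The leukocyte markers summed to 3.72 to 14.6 CPM in bone marrow and 0.509 to 23.6 CPM in lung, the red cell markers to 17.2 to 115 and 3.63 to 172 CPM, the lung epithelium markers to 21.3 to 88.1 and 16.6 to 130 CPM, and those of endothelium and fibroblasts to 110 to 372 and 178 to 425 CPM. These markers are human genes, while cells carried over from the host would be mouse cells, so the sums do not measure host cells. Reads assigned to mouse were 7.52 ± 0.191% in bone marrow, 7.36 ± 0.496% in lung (SD, n = 4 each) and 7.45% in the primary library. How mouse reads were treated in the count table is not given.

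Promoter sequences are shown because several of these genes carry forms of the ER stress element, and those of HSPA5, HSP90B1 and HERPUD1 in particular because the values below turn on them. RefSeq promoter windows (GRCh38.p14), running from 250 bases before to 50 bases after an annotated start, were found for 31 of the 34 genes, in 39 windows. Both strands were searched for exact matches to 3 motifs, so copies that differ in a letter were not counted. The ER stress element ERSE (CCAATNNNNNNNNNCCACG) pairs a site of the factor NF-Y with a site of ATF6. ERSE-II (ATTGGNCCACG) holds the same pair of sites at another spacing, with that of NF-Y in the opposite orientation. UPRE (TGACGTGG) is an element bound by XBP1. The windows of HSPA5, HSP90B1 and HERPUD1 up to the start site are given on the strand of the gene, with motif matches in capitals.
HSPA5, chr9:125241344-125241593, minus strand: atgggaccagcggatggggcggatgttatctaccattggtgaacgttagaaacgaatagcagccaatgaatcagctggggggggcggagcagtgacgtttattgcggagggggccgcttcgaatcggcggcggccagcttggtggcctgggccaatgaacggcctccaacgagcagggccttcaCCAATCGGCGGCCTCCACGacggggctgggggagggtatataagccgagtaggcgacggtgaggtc
HSP90B1, chr12:103930160-103930409, plus strand: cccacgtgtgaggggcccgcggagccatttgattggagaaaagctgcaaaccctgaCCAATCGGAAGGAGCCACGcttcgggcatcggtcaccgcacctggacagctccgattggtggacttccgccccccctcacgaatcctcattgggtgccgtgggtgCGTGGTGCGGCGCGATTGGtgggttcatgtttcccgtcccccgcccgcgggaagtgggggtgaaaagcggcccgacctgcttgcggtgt
HERPUD1, chr16:56931892-56932141, plus strand: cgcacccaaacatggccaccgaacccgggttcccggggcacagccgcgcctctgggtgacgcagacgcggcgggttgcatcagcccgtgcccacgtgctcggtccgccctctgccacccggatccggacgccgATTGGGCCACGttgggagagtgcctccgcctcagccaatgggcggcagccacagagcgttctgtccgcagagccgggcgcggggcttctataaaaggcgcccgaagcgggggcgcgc
With bases before the start counted as negative, the exact ERSE match of HSPA5 lay at -66 to -48. HSP90B1 had 2 ERSE matches, at -194 to -176 and, on the opposite strand, at -89 to -71. The ERSE-II of HERPUD1 lay at -117 to -107. The HERPUD1 window also holds a stretch that differs from ERSE in its last letter alone and was not counted.

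Other matches are shown with 10 bases on either side, also on the strand of the gene.
CALR, ERSE, chr19:12938374-12938412: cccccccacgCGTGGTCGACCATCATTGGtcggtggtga
CANX, ERSE, chr5:179698768-179698806: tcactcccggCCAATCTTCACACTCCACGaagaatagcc
CRELD2, ERSE, chr22:49918544-49918582: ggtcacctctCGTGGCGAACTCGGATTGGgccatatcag
PDIA6, ERSE, chr2:10812843-10812881: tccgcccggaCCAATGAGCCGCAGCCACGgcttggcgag
XBP1, ERSE, chr22:28800593-28800631: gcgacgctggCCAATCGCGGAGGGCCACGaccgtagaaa
HYOU1, ERSE-II, chr11:119057264-119057294: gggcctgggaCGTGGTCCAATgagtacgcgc
HYOU1, ERSE-II, chr11:119057370-119057400: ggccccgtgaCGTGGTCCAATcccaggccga
SDF2L1, ERSE-II, chr22:21642104-21642134: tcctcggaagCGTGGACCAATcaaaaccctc
TXNDC5, UPRE, chr6:7910152-7910179: cactggcggcTGACGTGGcgctcggcgg
ERSE was in 27 of 35116 RefSeq windows (0.0769%) and in windows of 7 of the 31 genes. ERSE-II was in 19 windows (0.0541%) and in those of 3 of the 31. UPRE was in 256 windows (0.729%) and in those of 2 of the 31, HYOU1, where it overlapped the upstream ERSE-II, and TXNDC5. A match describes the letters only, and these elements were defined on several of the same genes.

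**Figure D1:**
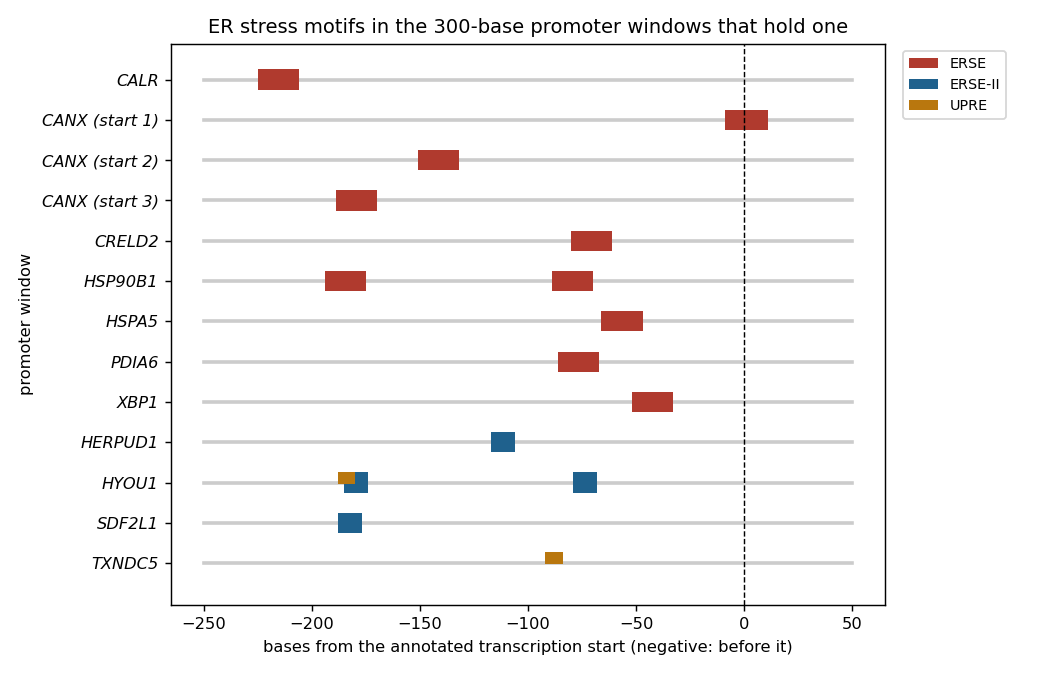
Position of each motif match, in bases from the annotated start, in the promoter windows with a match. Bars are coloured by motif, and CANX has 3 annotated starts that share 1 ERSE match. Most matches lie before the start, and 1 window of CANX has it across the start, from -9 to 10.

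The comparison of bone marrow with lung asks whether tumour cells of 1 line carry different amounts of ER folding transcripts at the 2 metastatic sites. HSPA5 and HSP90B1, the main ER chaperones of the HSP70 and HSP90 families, and the isomerase PDIA3 had higher means in bone marrow than in lung, while MANF, CRELD2, SDF2L1 and HERPUD1 had lower means in bone marrow. None of the 33 tested genes passed the edgeR quasi-likelihood test at a Benjamini-Hochberg adjusted p below 0.05, where 0.00586% of all tested genes did. Log2 fold changes were above 0 for 16 genes and below 0 for 17 (50.0% of all tested genes were below 0), with a median of -0.01 against 0.00 over all tested genes. In bulk RNA, fewer cells of a kind and less RNA per cell cannot be told apart. At an unadjusted edgeR p below 0.05 there were 5 genes, HSPA5, HSP90B1, MANF, PDIA3 and HERPUD1, where 10.2% of all tested genes were below it. DESeq2 called HSPA5 and PDIA3, 2 of 33 (background 3.37%), and limma voom called none (background 0.0351%). All bone marrow libraries were above all lung libraries for HSPA5 and PDIA3 (background 2.81%) and below them for MANF (background 3.06%).

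Set beside the promoter matches shown above, the 7 genes with an exact ERSE match were split. The log2 fold change of bone marrow over lung was above 0 for HSPA5, HSP90B1, CANX and PDIA6 and below 0 for CALR, CRELD2 and XBP1. Of the 3 genes with an exact ERSE-II match, HERPUD1 and SDF2L1 were below 0 and HYOU1 stood at 0.06 ± 0.84 (SE).

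**Figure D2:**
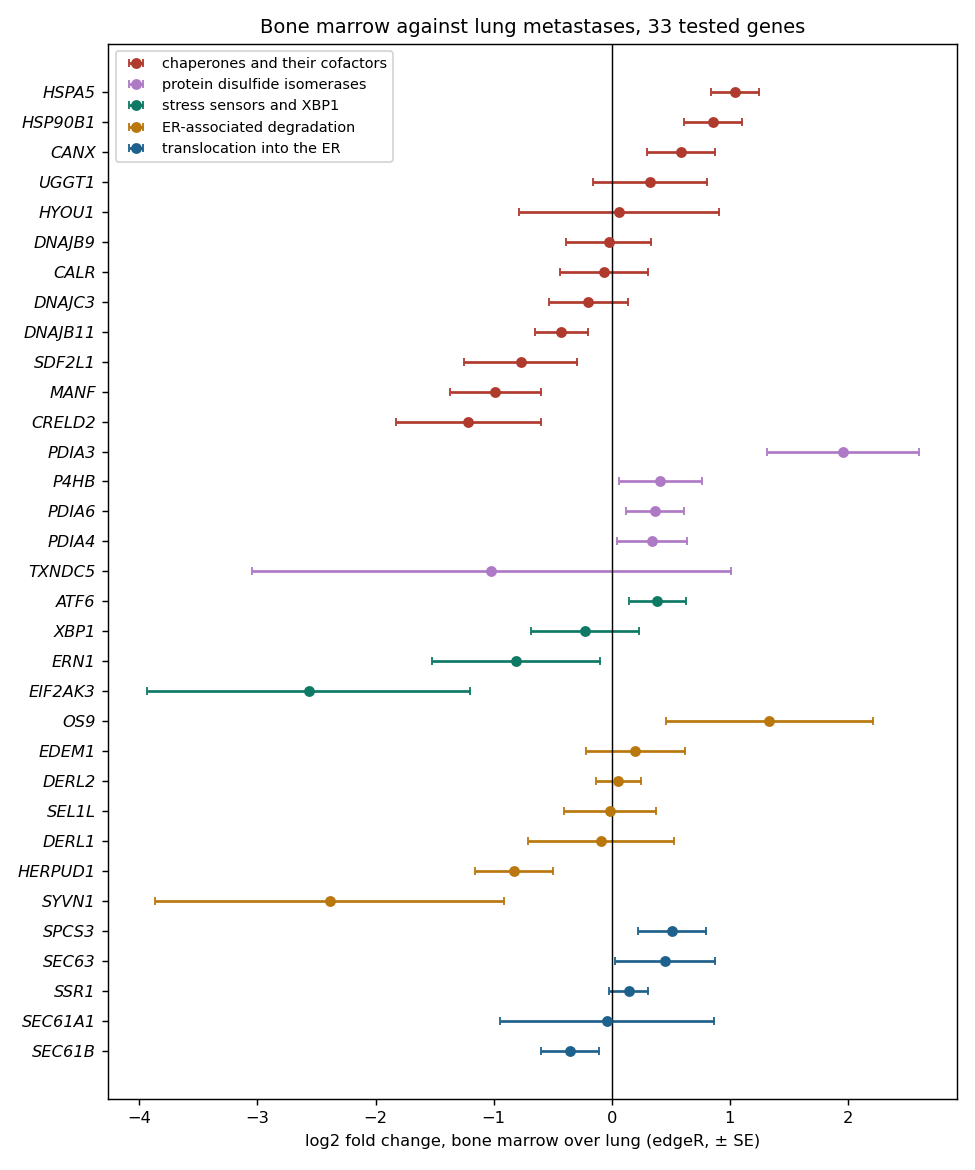
Log2 fold change of bone marrow over lung for the 33 tested genes, 1 row a gene, coloured by role. Points are edgeR estimates and bars are standard errors. HSPA5, at 1.05, and HSP90B1, at 0.86, stand right of 0, and MANF, at -0.98, and HERPUD1, at -0.82, stand left of it.

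Among chaperones, HSPA5 (BiP, the HSP70 chaperone that also holds the sensors inactive) had 2294, 2153, 1824 and 2177 CPM in bone marrow, against 1338, 880, 720 and 1148 CPM in lung, and the primary library held 4659 CPM. Each bone marrow library was above each lung library, and the primary library was above all 8. The log2 fold change of bone marrow over lung was 1.05 ± 0.20 (SE), with an edgeR p of 0.000623 and an adjusted p of 0.298, while the adjusted p was 0.00558 in DESeq2 and 0.120 in limma voom. Over the edgeR alternatives the adjusted p ran from 0.196 to 0.686 and the log2 fold change over all alternatives from 0.86 to 1.22.

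HSP90B1 (GRP94, the ER HSP90 that folds integrins and toll-like receptors) had 253, 437, 385 and 532 CPM in bone marrow, against 201, 211, 209 and 267 CPM in lung, and the primary library held 834 CPM. Bone marrow library 1 lay below lung library 4, so the sites overlapped, and the primary library was again above all 8. The log2 fold change of bone marrow over lung was 0.86 ± 0.25 (SE), with an edgeR p of 0.00680 and an adjusted p of 0.381 (0.0813 in DESeq2).

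MANF (chromosome 3, 51385047 to 51389397, hg38), a secreted neurotrophic factor that binds BiP, had the opposite direction. It had 21.9, 27.8, 21.5 and 26.0 CPM in bone marrow, against 40.1, 35.2, 82.4 and 34.5 CPM in lung, and the primary library held 36.7 CPM. All bone marrow libraries were below all lung libraries. Its log2 fold change of bone marrow over lung was -0.98 ± 0.39 (SE); the edgeR p was 0.0310 and the adjusted p 0.475. Without lung library 3 it was -0.59.

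CRELD2, an ER stress-inducible secreted protein, averaged 14.7 ± 7.80 CPM over bone marrow and 34.2 ± 18.6 CPM over lung libraries (SD, n = 4 each), and SDF2L1, a partner of BiP in the ER, 52.8 ± 33.1 and 90.1 ± 23.1 CPM. Their log2 fold changes were -1.21 ± 0.61 and -0.77 ± 0.48 (SE), and the sites overlapped for both. The J-domain cochaperone DNAJB11 had 143 ± 21.3 CPM over bone marrow and 192 ± 41.8 CPM over lung libraries. The lectin chaperone CANX had 503 ± 165 and 334 ± 104 CPM, and its soluble relative CALR 67.8 ± 28.8 and 70.9 ± 22.1 CPM. DNAJB9 and DNAJC3, also J-domain proteins, differed by less than their spread, at 188 ± 86.4 and 161 ± 65.3 CPM in bone marrow and 191 ± 67.4 and 185 ± 50.0 CPM in lung. HYOU1, an HSP110-like exchange factor of BiP, stood at 0.679 to 6.39 CPM in all 9 libraries. UGGT1, the glucosyltransferase that senses misfolded glycoproteins, had 27.2 ± 10.1 CPM over bone marrow and 21.7 ± 10.8 CPM over lung libraries. Over the 12 chaperones, 5 log2 fold changes were above 0 and 7 below, with a median of -0.04. DNAJC3 lies beside an antisense gene, DNAJC3-AS1 (38.6 ± 8.70 CPM in bone marrow, 50.3 ± 9.39 CPM in lung). Since the strand of the counting is not given, reads from any stretch that the 2 genes share could have been counted for either.

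The directions of HSPA5 and HERPUD1 can be set beside each other as a ratio within a library, which does not depend on the scaling. The ratio of HSPA5 to HERPUD1 counts was 13.6, 10.8, 9.80 and 7.68 in bone marrow, against 2.66, 2.37, 4.15 and 2.64 in lung, and 7.65 in the primary library. Every bone marrow ratio was above every lung ratio, and the primary library lay just under the lowest bone marrow value. This pair was chosen after its values were seen, so the ratio is a description with no test. As a share of the summed CPM of the 34 genes, HSPA5 took 29.1 ± 4.43% in bone marrow, 17.5 ± 3.96% in lung (SD, n = 4 each) and 43.9% in the primary library. Without HSPA5 the other genes summed to 5223 ± 822 CPM in bone marrow, 4778 ± 216 CPM in lung, and the primary library held 5956 CPM.

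**Figure D3:**
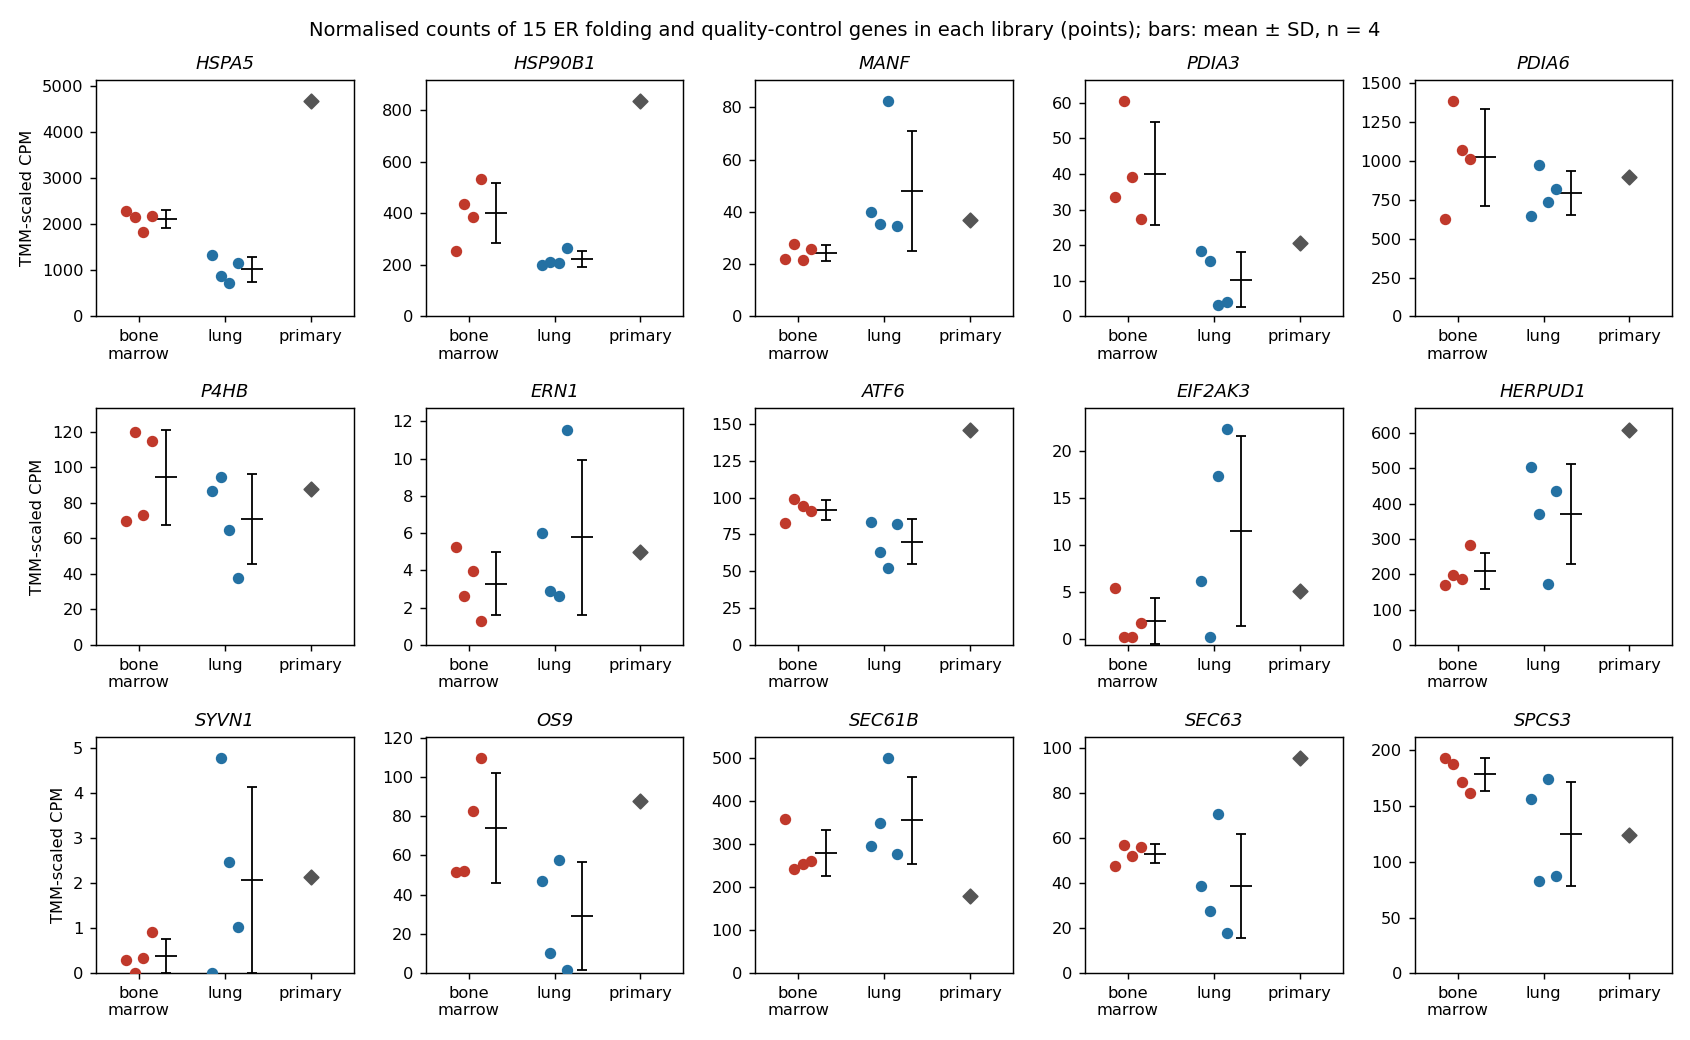
TMM-scaled CPM of 15 genes in each library, with a panel a gene; points are libraries, bars the mean ± SD of 4 libraries and the diamond the primary library. HSPA5 and PDIA3 have all bone marrow points above all lung points, MANF has all of them below, and the primary diamond of HSPA5 is at 4659 CPM.

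Among the isomerases, which form and reshuffle disulfide bonds, PDIA3 (ERp57, a partner of the lectin chaperones; chromosome 15, 43746392 to 43773279, hg38) had 33.5, 60.4, 39.1 and 27.4 CPM in bone marrow, against 18.3, 15.5, 3.23 and 4.14 CPM in lung, and the primary library held 20.7 CPM. All bone marrow libraries were above all lung libraries, and the primary library lay between the sites. Its log2 fold change of bone marrow over lung was 1.96 ± 0.65 (SE); the edgeR p was 0.0142 and the adjusted p 0.436 (0.381 to 0.686 over the edgeR alternatives, and 0.0496 in DESeq2). The log2 fold change ran from 1.67 to 2.40 over all alternatives. PDIA6 had 627, 1382, 1067 and 1012 CPM in bone marrow, against 645, 972, 733 and 821 CPM in lung, and the primary library held 898 CPM. The sites overlapped through bone marrow library 1, and the log2 fold change of 0.37 ± 0.25 (SE) was 0.56 without bone marrow library 1 and 0.19 without bone marrow library 2. P4HB, the canonical PDI and a subunit of prolyl hydroxylase, had 69.6, 120, 73.1 and 115 CPM in bone marrow, against 86.4, 94.5, 64.8 and 37.5 CPM in lung, and the primary library held 88.0 CPM. The sites overlapped widely (log2 fold change 0.41 ± 0.35, SE; 0.20 without lung library 4). PDIA4 averaged 169 ± 65.5 CPM over bone marrow and 133 ± 14.7 CPM over lung libraries. TXNDC5, a relative with thioredoxin domains, was listed at 0 in 1 bone marrow and 2 lung libraries and reached 64.2 CPM in lung library 2. A readthrough gene, BLOC1S5-TXNDC5, covers the same locus, so its level is uncertain.

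Among the sensors, ATF6 had 83.0, 98.9, 94.3 and 90.6 CPM in bone marrow, against 83.2, 63.4, 52.1 and 82.0 CPM in lung, and the primary library held 146 CPM. The lowest bone marrow library lay just under the highest lung library, and the primary library was above all 8. The log2 fold change of bone marrow over lung was 0.39 ± 0.24 (SE; adjusted p = 0.582 in edgeR). ERN1 had 5.25, 2.62, 3.96 and 1.30 CPM in bone marrow, against 6.02, 2.88, 2.65 and 11.6 CPM in lung, and the primary library held 4.99 CPM. The sites overlapped, and its log2 fold change of -0.81 ± 0.71 (SE) was -0.23 without lung library 4. EIF2AK3 had 5.48, 0.244, 0.278 and 1.76 CPM in bone marrow, against 6.19, 0.211, 17.4 and 22.3 CPM in lung, and the primary library held 5.14 CPM. Both sites held a library near 0, and the log2 fold change of -2.57 ± 1.37 (SE) had an edgeR adjusted p of 0.510. It was -3.88 without bone marrow library 1. XBP1, the transcription factor downstream of IRE1, averaged 123 ± 71.1 CPM over bone marrow and 144 ± 42.7 CPM over lung libraries, with 104 CPM in the primary library. Of the 4 genes, 1 had a log2 fold change above 0 and 3 below.

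Among the degradation genes, HERPUD1, a scaffold of the ubiquitin ligase complex in the ER membrane, had 168, 199, 186 and 284 CPM in bone marrow, against 502, 372, 174 and 434 CPM in lung, and the primary library held 609 CPM. Lung library 3 lay inside the bone marrow range, the other lung libraries lay above it, and the primary library was above all 8. The log2 fold change of bone marrow over lung was -0.82 ± 0.33 (SE), with an edgeR p of 0.0343 and an adjusted p of 0.481. SYVN1, the ligase HRD1, had 0.296, 0, 0.348 and 0.913 CPM in bone marrow, against 0, 4.78, 2.48 and 1.02 CPM in lung, and the primary library held 2.15 CPM. Levels were low and included a 0 at each site (log2 fold change -2.39 ± 1.48, SE; -1.56 without lung library 2 and -1.42 in limma voom). OS9, a lectin that delivers misfolded glycoproteins to SYVN1, had 51.6, 51.9, 82.6 and 110 CPM in bone marrow, against 47.0, 10.6, 57.9 and 1.53 CPM in lung, and the primary library held 87.6 CPM. Lung library 3 lay within the bone marrow range and the other lung libraries below it, and the log2 fold change was 1.34 ± 0.88 (SE), 2.56 in limma voom.

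SEL1L, the adaptor of SYVN1, averaged 97.4 ± 21.6 CPM over bone marrow and 98.1 ± 43.8 CPM over lung libraries. EDEM1, a mannosidase-like protein that marks glycoproteins for disposal, averaged 26.7 ± 8.37 and 23.2 ± 7.72 CPM. The derlins, membrane proteins of the exit route, were at 40.5 ± 27.5 and 43.0 ± 24.2 CPM for DERL1 and 366 ± 55.1 and 352 ± 52.6 CPM for DERL2. DERL3 had 0 counts in every library, which at 3 counts a library allows up to 0.167 to 0.260 CPM, covering counting error only. It was the 1 gene of the 34 that was not tested.

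Among the translocation genes, SEC61B, a small subunit of the channel, had 358, 242, 256 and 261 CPM in bone marrow, against 296, 350, 500 and 277 CPM in lung, and the primary library held 181 CPM. The sites overlapped through bone marrow library 1, and the primary library was below all 8. Bone marrow over lung, its log2 fold change was -0.35 ± 0.24 (SE), and -0.13 without lung library 3. SEC63, a J-domain partner of the channel, had 47.5, 56.8, 51.9 and 56.2 CPM in bone marrow, against 38.8, 27.9, 70.6 and 17.9 CPM in lung, and the primary library held 95.4 CPM. Bone marrow libraries lay within a narrow range that lung libraries spanned, and the log2 fold change of 0.45 ± 0.42 (SE) was 0.92 without lung library 3 and 0.21 without lung library 4. SPCS3, a subunit of the signal peptidase, had 193, 188, 171 and 161 CPM in bone marrow, against 156, 83.2, 174 and 87.0 CPM in lung, and the primary library held 124 CPM. Lung library 3 was inside the bone marrow range. SSR1, of the translocon-associated complex, averaged 723 ± 34.7 CPM over bone marrow and 655 ± 102 CPM over lung libraries, with 708 CPM in the primary library. SEC61A1, the pore subunit, ran from 13.7 to 67.1 CPM in bone marrow and from 2.32 to 61.8 CPM in lung.

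The spread within a site was uneven over the genes. In bone marrow the highest library was under 1.5 times the lowest for 9 genes (HSPA5, DNAJB11, MANF, ATF6, DERL2, SEC61B, SEC63, SSR1 and SPCS3), and in lung for 4 (HSP90B1, PDIA4, DERL2 and SSR1). It was over 5 times the lowest, or the lowest was 0, for 5 genes in bone marrow and 7 in lung, among them TXNDC5, EIF2AK3 and SYVN1 at both sites. Over all tested genes the biological coefficient of variation was 0.925.

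Bone marrow library 1 and lung library 3 were found apart from the rest in an earlier look at these data. Without both, the sites did not overlap for 8 genes higher in bone marrow (background 8.41%), which were HSPA5, HSP90B1, PDIA3, PDIA6, ATF6, OS9, SEC63 and SPCS3. They did not overlap for 3 genes lower in bone marrow (background 9.36%), MANF, HERPUD1 and SEC61B. Still 0 of 33 genes passed the edgeR adjusted p. With all libraries these counts were 2 and 1 (backgrounds 2.81% and 3.06%), and leaving libraries out can only remove overlaps. The libraries left out were those that made the overlap for HSP90B1, PDIA6, SEC61B, HERPUD1, OS9 and SPCS3. These counts were chosen after seeing the data and are a description with no test.

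**Figure D4:**
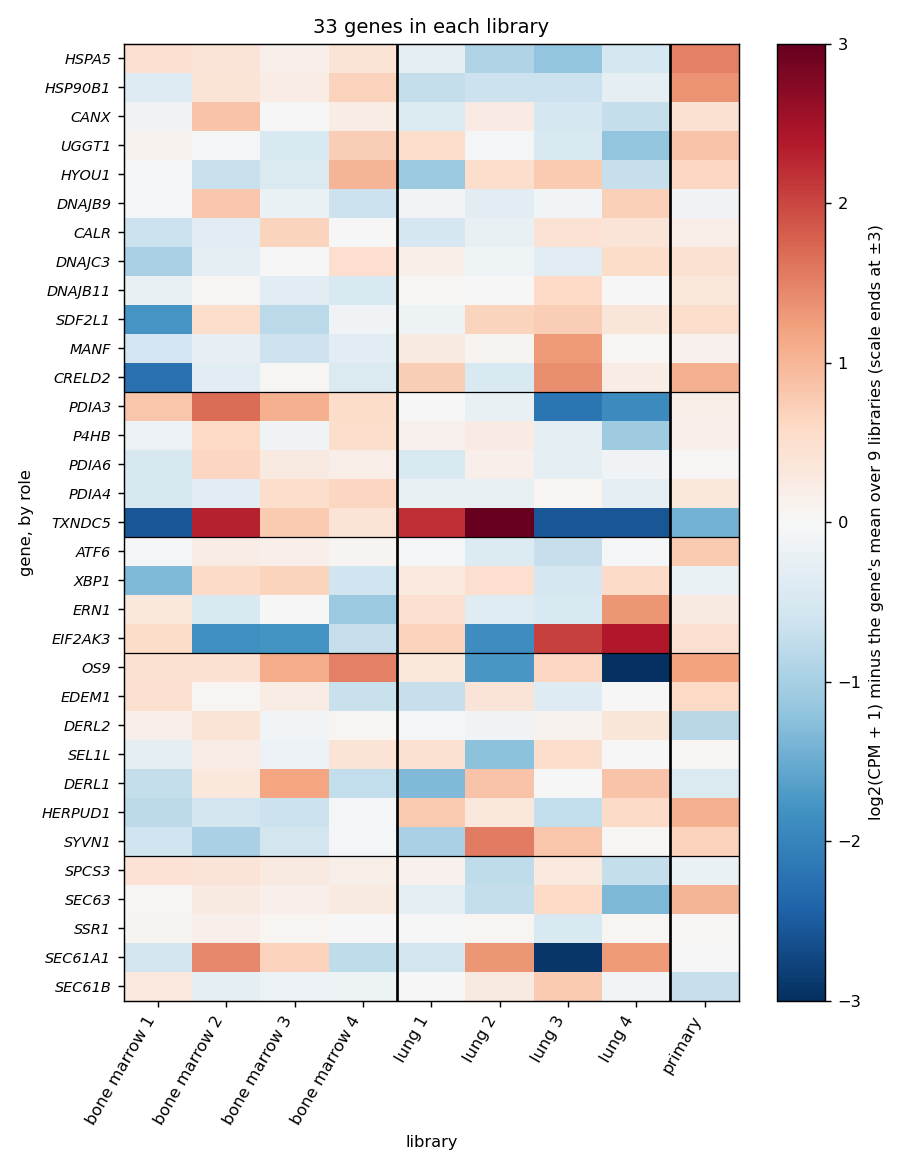
Log2(CPM + 1) of the 33 tested genes in each library, minus the mean of the gene over the 9 libraries; rows are grouped by role, columns are bone marrow, lung and the primary library, and the colour scale ends at ±3. HSPA5 is above its mean in bone marrow and the primary library and below it in lung, while rows such as TXNDC5 and EIF2AK3 vary between libraries of the same site.

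The comparisons with the primary tumour ask whether metastatic cells differ from those left at the site of injection. With 1 primary library these tests assume that it varies as the metastasis libraries do, and they have no replicate check. They share the primary library with each other and the metastasis libraries with the comparison above. HSPA5, HSP90B1 and HERPUD1 had lower means at both metastatic sites than the level of the primary library. For metastases over primary, 10 genes had log2 fold changes above 0 and 23 below (42.5% of all tested genes were below 0). Their median was -0.19, against 0.17 over all tested genes. None of the 33 genes passed edgeR (background 0%), 5 had an unadjusted edgeR p below 0.05 (background 4.79%), and DESeq2 called 1 (background 0.730%) and limma voom 1 (background 0.281%), in both cases HSPA5. The 5 were HSPA5, HSP90B1, ATF6 and HERPUD1, lower in metastases, and DERL2, higher.

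HSPA5 had a log2 fold change of -1.67 ± 0.26 (SE) for metastases over primary, with an adjusted p of 0.466 in edgeR (0.407 to 0.766 over its alternatives), 0.00836 in DESeq2 and 0.0276 in limma voom. By site the log2 fold change was -1.14 ± 0.30 (SE) for bone marrow over primary and -2.19 ± 0.28 (SE) for lung over primary. HSP90B1 stood at -1.05 ± 0.36 (SE) for bone marrow over primary and -1.91 ± 0.35 (SE) for lung over primary. HERPUD1 had the opposite order, at -1.54 ± 0.47 (SE) for bone marrow over primary and -0.72 ± 0.50 (SE) for lung over primary. ATF6 stood at -0.67 ± 0.37 and -1.06 ± 0.36 (SE) in the same 2 comparisons, and DERL2 at 0.97 ± 0.32 and 0.91 ± 0.32 (SE).

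For bone marrow over primary, edgeR, DESeq2 and limma voom called none of the 33 genes (backgrounds 0%, 0.546% and 0%). The median log2 fold change was -0.25 against 0.17 over all tested genes, and 4 genes had an unadjusted edgeR p below 0.05 (background 3.81%). For lung over primary edgeR called none (background 0%), with 5 genes at an unadjusted p below 0.05 (background 6.44%), DESeq2 called HSPA5 and HSP90B1 (2 of 33, background 1.30%) and limma voom called HSPA5 (background 0.0234%). The median was -0.15 against 0.16. The DESeq2 adjusted p of lung over primary was 0.000100 for HSPA5 and 0.00798 for HSP90B1, where the edgeR adjusted p was 0.251 (0.201 to 0.617 over alternatives) and 0.448 (0.227 to 0.648).

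The primary library lay above all 8 metastasis libraries for 7 genes (background 10.1%), HSPA5, HSP90B1, UGGT1, ATF6, HERPUD1, EDEM1 and SEC63, and below all 8 for 2 (background 7.57%), DERL2 and SEC61B. By role, 3 of the 12 chaperones, 1 of the 4 sensors, 2 of the 7 tested degradation genes and 1 of the 5 translocation genes were above all 8, and none of the isomerases. The chaperones summed to 3698 ± 409 CPM in bone marrow, 2412 ± 239 CPM in lung (SD, n = 4 each), and to 6983 CPM in the primary library, sums that HSPA5 dominates. The isomerases summed to 1336 ± 364, 1029 ± 167 and 1195 CPM and the translocation genes to 1268 ± 78.0, 1209 ± 41.0 and 1133 CPM in the same groups.

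**Figure D5:**
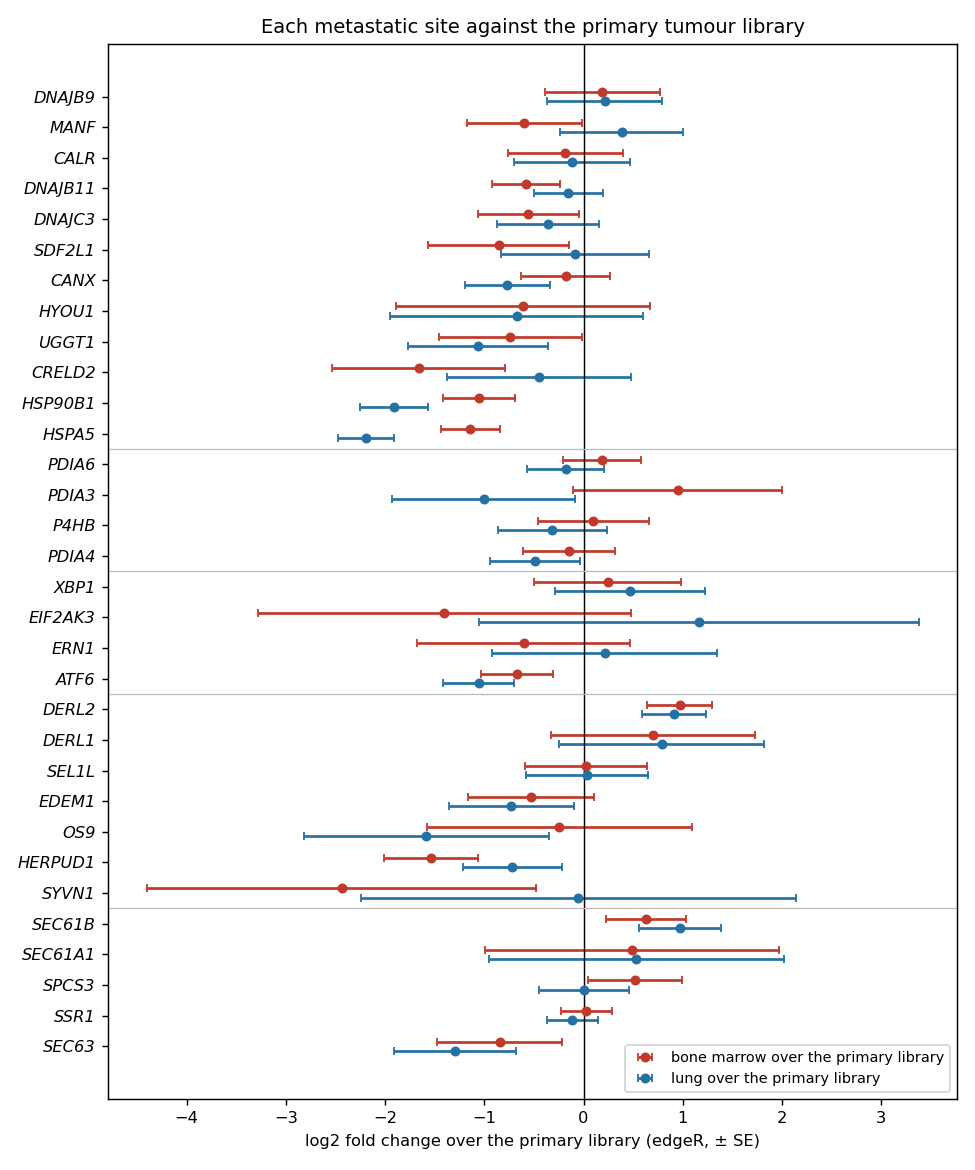
Log2 fold change of bone marrow and of lung over the primary library for 32 genes, grouped by role; points are edgeR estimates, bars standard errors, and TXNDC5 is left out because its bar is far wider. HSPA5 and HSP90B1 lie farther below 0 in lung than in bone marrow, and HERPUD1 lies farther below 0 in bone marrow.

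Levels of different genes were compared as CPM per kilobase of the median protein-coding transcript (GENCODE release 29). HSPA5 stood at 540 ± 51.6 CPM per kilobase in bone marrow, 261 ± 70.3 in lung (SD, n = 4 each) and 1192 in the primary library, where it ranked first of the 34. In bone marrow DERL2, HSPA5 and SEC61B, at 556 ± 83.8, 540 ± 51.6 and 493 ± 94.0 CPM per kilobase, did not differ beyond their spread. In lung SEC61B stood at 629 ± 179 CPM per kilobase, above HSPA5 with either the median or the longest transcript, while PDIA6, at 327 ± 57.4, and HSPA5 did not differ beyond their spread. DERL2 and SSR1, at 535 ± 80.1 and 362 ± 56.4 CPM per kilobase in lung, were above HSPA5 with the median length and below it with the longest. HSPA5, PDIA6, HERPUD1 and SEC61B were among the first 8 in every group whether the median or the longest transcript was used, while DERL2 was not. HYOU1, UGGT1, ERN1, EIF2AK3, SYVN1 and DERL3 were among the last 7 in every group with either length.

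Beyond the 34, lists of 110 further genes of the pathway were counted, all of them tested. For bone marrow over lung, 60 were above 0 and 50 below, with a median log2 fold change of 0.08. None passed edgeR and limma voom called none, DESeq2 called 4 of 110 (background 3.37%), and for 12 of 110 the unadjusted edgeR p was below 0.05 (background 10.2%), so both shares were near those over all tested genes. Of the 4, ATF6B and UBE2G2 were higher in bone marrow and ATF3 and ATF4 lower. The list of the PERK arm and stress signalling had 6 genes above 0 and 12 below, with a median of -0.40. Genes of vesicle export and ER-phagy had 17 above and 3 below (median 0.25), further folding and redox genes 18 and 11 (median 0.14), further degradation genes 12 and 11 (median 0.01) and further translocation genes 7 and 13 (median -0.08).

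ATF4, the transcription factor translated when PERK is active, had 42.7, 56.5, 36.8 and 20.1 CPM in bone marrow, against 73.3, 74.5, 162 and 96.8 CPM in lung, and the primary library held 139 CPM. All bone marrow libraries were below all lung libraries, with a log2 fold change of -1.38 ± 0.40 (SE), an edgeR adjusted p of 0.381 and a DESeq2 adjusted p of 0.0401. Over the 110 genes, the sites did not overlap for 5 higher in bone marrow (background 2.81%) and 3 lower (background 3.06%). ATF4 is shown because its p was among the smallest of the 110. ATF3, a stress-induced factor downstream of ATF4, averaged 27.1 ± 15.2 CPM over bone marrow and 95.4 ± 32.9 CPM over lung libraries, with 43.6 CPM in the primary library, a log2 fold change of -1.81 ± 0.49 (SE) and a DESeq2 adjusted p of 0.0156. ATF3 is also an early response gene. Of 14 genes listed for tissue dissociation and early response, ATF3 among them, 11 were below 0 for bone marrow over lung, with a median of -0.88. That list summed to 958 to 2383 CPM in bone marrow, 1163 to 2017 CPM in lung, and the primary library held 1291 CPM, and its part in the values of ATF3 and ATF4 was not tested. UBE2G2, a ubiquitin-conjugating enzyme of ER degradation, averaged 120 ± 15.1 CPM over bone marrow and 59.2 ± 18.6 CPM over lung libraries, with a DESeq2 adjusted p of 0.0379. ATF6B, a relative of ATF6, was at 2.58 ± 2.88 CPM over bone marrow and 0.0394 ± 0.0457 CPM over lung libraries, with 2 lung libraries at 0.

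For metastases over primary, 68 of the 110 were above 0 and 42 below, with a median of 0.19 against 0.17 over all tested genes. edgeR, DESeq2 and limma voom called none, and 4 of 110 had an unadjusted edgeR p below 0.05 (background 4.79%), a smaller share than over all tested genes. The smallest p values above 0 belonged to the ER-phagy receptor TEX264 and the peroxiredoxin PRDX4. TEX264 averaged 41.4 ± 9.63 CPM over bone marrow and 45.0 ± 23.6 CPM over lung libraries, against 9.59 CPM in the primary library, and PRDX4 830 ± 268 and 1124 ± 184 CPM, against 454 CPM. Those below 0 belonged to DDIT3 and ATF4. DDIT3 (CHOP, the factor that links prolonged ER stress to cell death) had 469, 187, 128 and 71.0 CPM in bone marrow and 325, 193, 179 and 348 CPM in lung, against 725 CPM in the primary library. The primary library was above all 8, and the edgeR adjusted p was 0.9999. Against the primary library by site, the thioredoxin relative TMX1 (log2 fold change 0.82 ± 0.34, SE) came after TEX264 above 0 in bone marrow. Below 0 in lung, the smallest p belonged to ATF6B (-5.44 ± 1.70, SE), whose lung values were near 0. The coat subunit SEC31A (-1.20 ± 0.47, SE) came after ATF6B there. None of these was called by any of the 3 tools in these comparisons.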

How the data were processed

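The count table deposited by the authors holds an estimated count per gene symbol and library, not scaled to depth. The submitters' processing notes name Trim Galore, Salmon and hg38; for the annotation and the strand setting, the sources used here give nothing. A second deposited table holds, per library, the percent of reads by species and the fraction of reads by counting category, with reads of 151 bases; the sources used here do not say how the authors made these. Per the labels' protocols the kit was a low-input one with template switching, so a count near 0 may also reflect molecules lost before sequencing. Groups and replicate numbers came from sample titles.

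Estimated counts were rounded. The 12 vector rows (at most 0.0133% of a library) were left out. Genes were filtered with filterByExpr, scaled by TMM and fitted in 1 edgeR 4.0.16 quasi-likelihood model of 3 groups over all 9 libraries, two-sided, with Benjamini-Hochberg adjustment over 17073 genes and a threshold of 0.05. Standard errors are the absolute log2 fold change over the square root of F. Positive values mean higher in the group named first. DESeq2 1.42.0, limma 3.58.1 (voom with quality weights), other scalings and filters, a replicate block, the 8 metastasis libraries alone, and libraries left out singly or as a pair were alternatives; counts of non-overlap without that pair were added after seeing the data. Simulated data were used to test the edgeR step. No 2 of the 36 library pairs agreed within sampling noise (lowest chi-square per degree of freedom 79.9). Genes given with every library's value were HSPA5, those called by any of the 3 tools, and the 3 smallest p per role. Of further pathway genes, the 2 of smallest p above and below 0 are given, and for bone marrow over lung these are also the DESeq2 calls. The genes and lists were chosen with earlier results of these data known. Promoter sequences are from RefSeq, gene positions and lengths from GENCODE release 29 (hg38).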

Additional observations from a re-analysis of the deposited data

Results flagged for a closer look

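Of 66 sets of 4 libraries (33 genes at 2 sites), 5 had a library set apart from the other 3 by a gap, as a share of the range, above Dixon's critical value for 4 values; chance does this in about 1 of 20 sets. HSP90B1 was at 267 CPM in lung library 4 and at 201 to 211 CPM in the other lung libraries. DNAJB11 was at 254 CPM in lung library 3, against 169 to 173 CPM. MANF was at 82.4 CPM in lung library 3, against 34.5 to 40.1 CPM. SSR1 was at 503 CPM in lung library 3, against 687 to 717 CPM. SEC61B was at 358 CPM in bone marrow library 1, against 242 to 261 CPM. Lung library 3 accounted for 3 of the 5. Causes were not tested.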

How the results depend on the processing

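Of 449 checked log2 fold changes of single genes under the alternatives, 0 reversed, 442 kept their direction and side of the threshold, and 7 passed under DESeq2 or limma voom where edgeR had not. DESeq2 called 2 of the 33 genes for bone marrow over lung, 1 for metastases over primary and 2 for lung over primary, and limma voom called 1 in each of the comparisons of metastases and of lung with primary, where edgeR called 0. The median log2 fold change for bone marrow over lung ran from -0.070 to 0.18 with single libraries left out, highest without lung library 2, so its sign was not settled. That for metastases over primary was -0.42 in limma voom and ran from -0.38, without bone marrow library 1, to -0.16 with single libraries left out. Same-numbered libraries of the 2 sites did not deviate together (Pearson r across 9645 genes of -0.00356, 0.0433, -0.0729 and -0.0359). No libraries known to share a mouse could be set beside these values, so whether the numbers pair libraries was not settled. With the replicate block, edgeR called 0 of the 33 genes and HSPA5 had a log2 fold change of 1.08. The causes were not tested. The coefficient of variation of 0.925 and the single primary library limit what these data can show.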
